A study of Rattus norvegicus with 16 samples.

Results

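The growth plate cartilage genes described here are 10 named genes, Acan, Matn1, Matn3, Ihh, Pth1r, Sox9, Comp, Hapln1, Cnmd and Prg4. Members were all probe sets whose single gene symbol in the platform annotation was one of these names, and collagen genes were not included. Of the 10 genes, 7 were named on at least 1 probe set, out of 14217 genes so named, which gave 11 of the 31042 probe sets left after control probe sets were removed. Acan had 2 probe sets, Hapln1 had 3, Pth1r had 2, and Matn1, Ihh, Comp and Cnmd had 1 each. Matn3, Sox9 and Prg4 are named only. A filter on dim probe sets, at a mean signal of 173.5, was passed by 10 of the 11 member probe sets and by 18625 probe sets in all. The second Pth1r probe set, 1375789_at, had a mean signal of 166.6 and lay just below that level.

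The growth plate is the band of cartilage near the end of a growing long bone in which chondrocytes divide, enlarge and leave a mineralized scaffold on which bone is laid down. Its matrix is built from collagens, the proteoglycan aggrecan (Acan) held on hyaluronan by link protein (Hapln1), and adaptor proteins such as matrilins and Comp. Chondrocytes about to enlarge secrete Indian hedgehog (Ihh), which keeps up production of parathyroid hormone-related protein, and that peptide acts through Pth1r to delay enlargement. Sox9 is the transcription factor that sets the chondrocyte program, Cnmd (chondromodulin) is a membrane glycoprotein that keeps blood vessels out of cartilage, and Prg4 is the lubricant of the joint surface.

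The data were total RNA signals from the proximal femur of 4-week-old rats of the inbred strains F344, LEW, COP and DA, with 4 Affymetrix arrays per strain and 16 in all. The labels name F344 as Fischer 344, LEW as Lewis, COP as Copenhagen 2331, and DA as Dark Agouti. They gave no treatment, no sex and no scan date, and F344 and LEW were the parents of the intercross that the study's design names. Nothing in the labels says that the 4 arrays of a strain came from separate animals, so the p-values reflect the spread among these samples only, and that spread may be technical. A piece of femur holds cartilage, bone, marrow, muscle and fat together, and in such bulk tissue fewer cells of a type and less RNA per cell cannot be told apart. Of 20 other named cartilage matrix genes outside the collagens, 18 also passed the filter.

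Every array had a 2% trimmed mean signal of about 1000, and the array medians lay between 302.8 and 324.6. The ratio of the 3' to the 5' Gapdh control probe set, a measure of RNA quality, lay between 0.970 and 1.06 on the 16 arrays, and the actin ratio between 1.84 and 2.32. Each array correlated best with an array of its own strain, and no 2 arrays shared more than 0.00643% of their values. LEW replicates 1 and 4 and COP replicates 1 and 4 lay at opposite ends of their strains for most member probe sets. They stood apart in some other gene lists too, and summaries over the arrays are given with and without them. These arrays were picked as the members' own extremes in LEW and COP. Leaving them out therefore narrows the members' spread, and tends to lower their correlations, by the choice itself.

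RefSeq promoters were found for 6 of the 10 members, and the 4 shown are those of members with a probe set. The others, of Matn3 and Prg4, are not shown. Each is the 250 bases before the annotated start in the assembly GRCr8, written 5′ to 3′ on the gene's own strand. Capitals mark matches, on either strand, to the GC box GGGCGG or the RUNX motif TGTGGT.
Acan, chr1:142390701-142390950, plus strand: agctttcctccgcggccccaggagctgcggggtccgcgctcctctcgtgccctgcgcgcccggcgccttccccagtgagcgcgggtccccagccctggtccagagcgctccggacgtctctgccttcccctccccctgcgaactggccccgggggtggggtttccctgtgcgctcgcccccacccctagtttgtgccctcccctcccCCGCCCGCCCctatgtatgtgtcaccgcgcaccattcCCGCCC
Hapln1, chr2:22366717-22366966, plus strand: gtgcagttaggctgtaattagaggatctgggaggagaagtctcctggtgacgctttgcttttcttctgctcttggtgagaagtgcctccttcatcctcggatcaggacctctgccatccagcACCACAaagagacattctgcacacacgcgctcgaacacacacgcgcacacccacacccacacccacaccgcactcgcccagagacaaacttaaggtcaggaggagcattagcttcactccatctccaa
Comp, chr16:19089549-19089798, minus strand: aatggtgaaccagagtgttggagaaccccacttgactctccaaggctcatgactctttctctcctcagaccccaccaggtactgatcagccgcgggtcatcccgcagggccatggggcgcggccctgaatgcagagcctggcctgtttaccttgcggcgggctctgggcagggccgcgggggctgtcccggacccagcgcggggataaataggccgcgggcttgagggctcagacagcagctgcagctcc
Pth1r, chr8:119595572-119595821, minus strand: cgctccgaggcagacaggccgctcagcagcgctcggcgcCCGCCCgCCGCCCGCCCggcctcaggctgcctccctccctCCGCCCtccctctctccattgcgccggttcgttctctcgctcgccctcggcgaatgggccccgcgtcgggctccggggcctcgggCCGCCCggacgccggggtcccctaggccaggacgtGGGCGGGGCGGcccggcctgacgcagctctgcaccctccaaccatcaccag
The Acan window held 3 GC box matches, of which 2 overlapped each other, and the Pth1r window held 7, of which 4 overlapped another match. The Hapln1 window held 1 RUNX match and the Comp window had no match to any motif searched. At least 1 GC box was present in 30.5% of all 33469 promoters of this length and a RUNX match in 14.5%. The SOX motif AACAAT, present in 10.3%, had no match in any of the 6 member promoters, and the 2 other motifs searched were TATAAA, present in 12.9%, and CCAAT, present in 34%. These are matches of letters only.

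Acan encodes aggrecan, the large chondroitin sulfate proteoglycan that gives cartilage its resistance to compression. On the probe set 1387355_at the signals of replicates 1 to 4 were 9622, 9741, 9558 and 9019 for F344, 5949, 8965, 7268 and 11656 for LEW, 11661, 9846, 8434 and 6540.4 for COP, and 9715, 7486, 7174 and 7484 for DA. The F344 arrays lay close together, while LEW replicate 4 was 1.96 times LEW replicate 1 and COP replicate 1 was 1.78 times COP replicate 4. On 1368836_a_at the signals were 7314.5, 6893, 6876 and 7072 for F344, 5315.5, 7245, 5012.5 and 8328 for LEW, 10001, 7938, 6725 and 4542 for COP, and 7369, 5699, 5618 and 5915 for DA. On both Acan probe sets LEW replicate 4 and COP replicate 1 were the highest arrays of their strains, and COP replicate 4 was the lowest of COP. The lowest LEW array was replicate 3 on 1368836_a_at and replicate 1 on 1387355_at. The arrays of every pair of strains overlapped on both probe sets. Neither probe set passed the F-test over the 4 strains (limma, adjusted p = 0.664 for 1368836_a_at and 0.517 for 1387355_at).

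Hapln1 encodes the link protein that fastens aggrecan to hyaluronan. On 1370125_at the signals were 8192, 7733, 7728.5 and 7798 for F344, 4546, 8775, 5099 and 10304 for LEW, 11445, 7519.8, 6455 and 3792 for COP, and 7178, 4199, 5031 and 7203 for DA. All 4 F344 arrays lay above all 4 DA arrays, whereas the LEW and COP arrays reached both above and below the F344 values. The highest COP array was 3.02 times the lowest, against 1.06 times in F344, 2.27 times in LEW and 1.72 times in DA. The other 2 Hapln1 probe sets, 1384541_at and 1386310_at, ranged from 1395 to 4286 and from 709 to 2606 over the 16 arrays. None of the 3 passed the F-test, with adjusted p between 0.276 and 0.545 (limma).

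Comp encodes cartilage oligomeric matrix protein, a thrombospondin family member that binds collagen fibrils. Its signals on 1387137_at were 11598, 11746, 11655 and 12232 for F344, 8228, 11424, 8764 and 14623 for LEW, 15814, 11985, 11036 and 8209.7 for COP, and 10885, 8495, 8194 and 9644 for DA. The 4 F344 arrays all lay above the 4 DA arrays, with a difference of 0.35 on the log2 scale (95% interval 0.013 to 0.69), which did not pass the adjusted threshold (limma, adjusted p = 0.155). Within F344 the highest array was 1.05 times the lowest.

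Matn1 encodes matrilin-1, an adaptor protein that forms filaments in cartilage matrix. Its signals on 1380579_at were 381, 415, 434 and 402 for F344, 107, 222, 226 and 594 for LEW, 510, 441, 288 and 274 for COP, and 180, 262, 224 and 343 for DA. LEW replicate 4 had the highest value of all 16 arrays and LEW replicate 1 the lowest, a 5.56-fold span within 1 strain. F344 exceeded LEW by 0.78 on the log2 scale (95% interval 0.067 to 1.49), which did not pass the adjusted threshold (limma, adjusted p = 0.145). Without LEW replicate 4 the difference was 1.22 with an adjusted p of 0.00349 in limma. With any other single array left out it did not pass.

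Cnmd, the vessel-repelling glycoprotein of cartilage, had signals on 1387164_at of 4602, 4232, 4329.6 and 4400.1 for F344, 2195, 3781, 2743 and 4744 for LEW, 5282, 4116.5, 3807 and 2273 for COP, and 4542, 3334, 3085 and 4218 for DA. LEW replicate 1 and COP replicate 4 were the lowest arrays, and COP replicate 1 was the highest. The F344 minus LEW difference of 0.45 on the log2 scale (95% interval 0.0021 to 0.89) did not pass the adjusted threshold (limma, adjusted p = 0.186). Without LEW replicate 4, the highest LEW array, the difference was 0.63 with an adjusted p of 0.0428 in limma. With any other single array left out it did not pass.

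Ihh, the hedgehog ligand, had signals on 1393271_at that reached down to the filter level. They were 362, 338, 298 and 368 for F344, 170, 247, 187 and 373 for LEW, 334, 300, 219 and 158 for COP, and 260, 178, 267 and 275 for DA. All F344 arrays lay above all DA arrays, while LEW replicate 4 lay above every F344 array. The F344 minus LEW difference was 0.55 on the log2 scale (95% interval 0.038 to 1.06) and did not pass the adjusted threshold (limma, adjusted p = 0.154). Without LEW replicate 4, the highest LEW array, it was 0.78 with an adjusted p of 0.0295 in limma. With any other single array left out it did not pass.

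Pth1r, the receptor of parathyroid hormone and of parathyroid hormone-related protein, was the 1 member that passed the test over strains. On 1370259_a_at the signals were 5109.9, 5099, 4818 and 4713 for F344, 3808, 4372, 3614 and 5036 for LEW, 4876, 3523, 3458 and 3253 for COP, and 4469, 3842, 3417 and 3189 for DA. They averaged 4935 ± 200.2 for F344, 4208 ± 639 for LEW, 3778 ± 741 for COP and 3729 ± 562 for DA (SD, n = 4 each). The F344 arrays all lay above the DA arrays, but COP replicate 1 lay above F344 replicates 3 and 4.

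The F-test over the 4 strains gave an adjusted p of 0.0295 for Pth1r in limma. F344 exceeded COP by 0.40 (95% interval 0.15 to 0.65, adjusted p = 0.0208 in limma) and DA by 0.42 (95% interval 0.17 to 0.66, adjusted p = 0.0212 in limma), both on the log2 scale. In the order of the strain means, F344, LEW, COP, DA, no neighbouring pair differed past the threshold (limma, adjusted p = 0.204, 0.435 and 0.970). Fitted with no intensity trend, the adjusted p was 0.0765 for the F-test, 0.0509 for F344 minus COP and 0.0527 for F344 minus DA in limma. With 1 array left out, the F-test call was lost without F344 replicate 1, 2 or 3, COP replicate 2 or DA replicate 3, with adjusted p up to 0.0810 in limma. The F344 minus COP call was lost without F344 replicate 1 or 2 or COP replicate 2, 3 or 4 (adjusted p up to 0.0718 in limma), and the F344 minus DA call without F344 replicate 1 or 2 or DA replicate 3 or 4 (adjusted p up to 0.0746 in limma). The size of the difference moved less, from 0.34 to 0.53 for F344 minus COP and from 0.34 to 0.51 for F344 minus DA. The dim second probe set, 1375789_at, ranged from 113 to 304, and in a fit without the filter it differed by -0.10 (SE 0.27) for F344 minus COP and 0.20 (SE 0.27) for F344 minus DA, with adjusted p of 0.894 and 0.758 in limma.

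Pth1r is also known from osteoblasts, and markers of bone-forming cells stood beside it. Of 15 osteoblast and osteocyte markers listed without Pth1r, 12 were named and 10 passed the filter, with Sost and Fgf23 below it. Their summed signal per array lay between 171730 and 180240 for F344, 166730 and 198850 for LEW, 165430 and 194500 for COP, and 161680 and 186760 for DA. For F344 minus DA, 3 of the 10 passed, where 17.3% of all genes counted by their brightest probe set did. They were Phex, Alpl and Phospho1, all higher in F344, with differences of 0.55, 0.53 and 0.41 on the log2 scale (limma, adjusted p = 0.00365, 0.00728 and 0.00074). For F344 minus COP 1 of the 10 passed, against 21.0% of all genes. It was Mepe, a phosphoglycoprotein of osteocytes, which differed by -0.47 on the log2 scale (limma, adjusted p = 0.00191). Phex, a membrane peptidase of osteocytes that bears on phosphate handling, averaged 5889 ± 77.9 in F344 and 4016 ± 271 in DA (SD, n = 4 each). The part of such markers in the Pth1r difference was not tested.

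**Figure D1:**
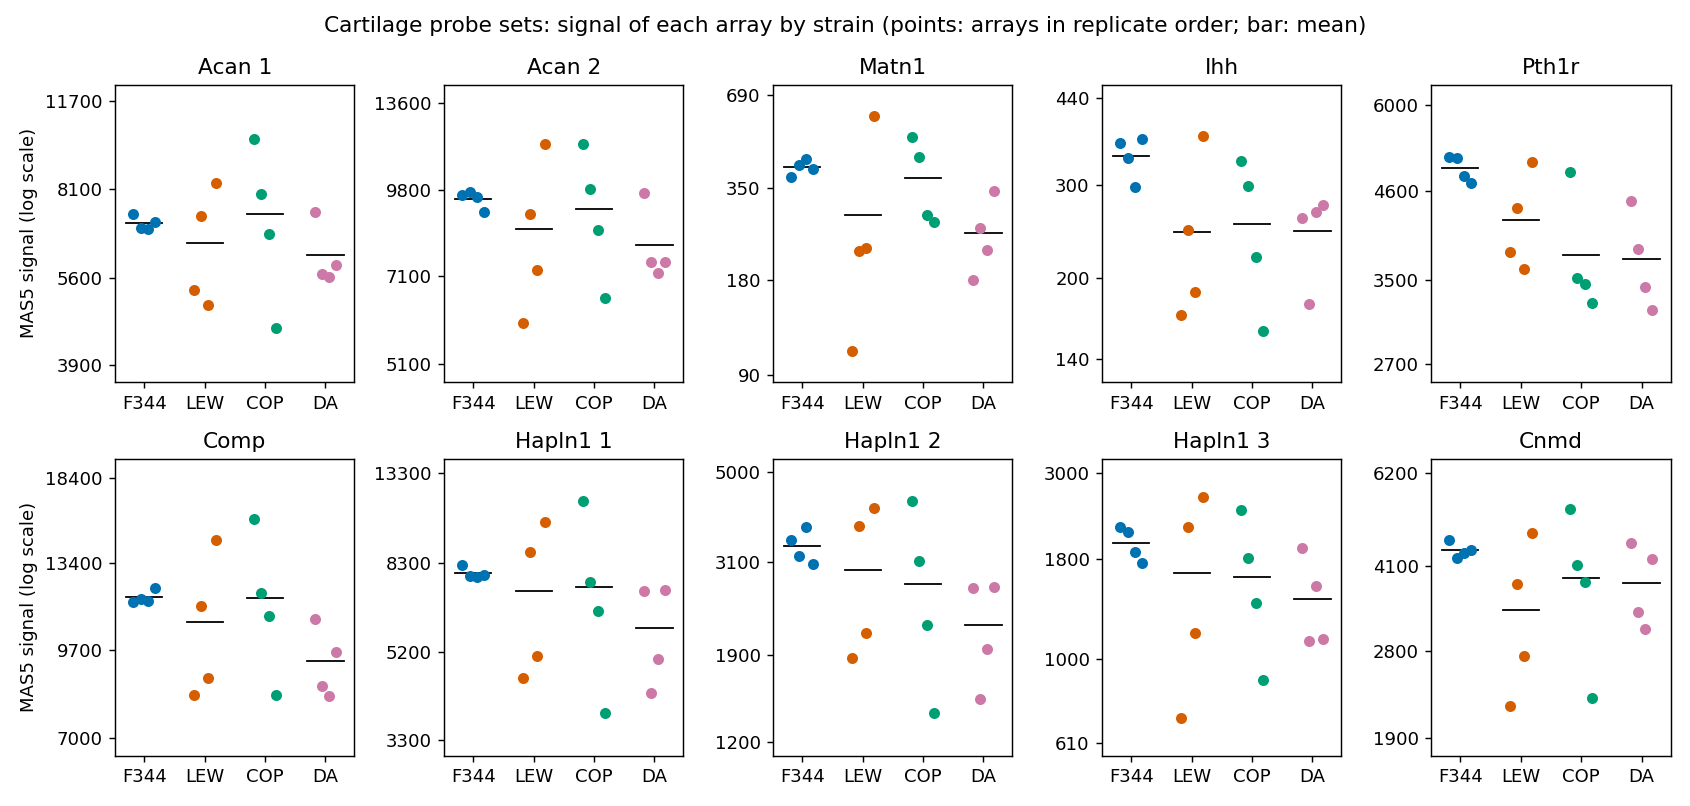
Signal of each array on the 10 cartilage probe sets past the filter, 1 panel per probe set, with strains on the x axis and the MAS5 signal on a log axis. Points are arrays in replicate order and the bar is the strain mean. Acan 1 and 2 are 1368836_a_at and 1387355_at, and Hapln1 1 to 3 are 1370125_at, 1384541_at and 1386310_at. The F344 points lie close together in most panels, while LEW replicate 4 and COP replicate 1 stand high and LEW replicate 1 and COP replicate 4 stand low.

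The strain comparisons asked whether the cartilage genes differed between the inbred strains. The 10 member probe sets belong to 7 genes and moved together, with a median correlation of 0.873 between genes. Counts of members in these comparisons are therefore not counts of independent results. By the F-test over the 4 strains, 1 of the 10 member probe sets, Pth1r, passed an adjusted p of 0.05, where 31.2% of all 18625 probe sets tested did. With array weights, 2 of 10 passed, Pth1r and Matn1, against 35.3% of all, and the same 2 passed without LEW replicate 4, against 33.2% of all. On log2 means F344 was the highest strain for all 10, and the lowest was DA for 7 and LEW for 3. On linear means COP stood above F344 for Acan 1368836_a_at, at 7039 in F344 and 7302 in COP.

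For F344 minus LEW, 0 of 10 members passed (limma), against 13.8% of all probe sets, and 3 members, Matn1, Ihh and Cnmd, had an unadjusted p under 0.05. All 10 differences lay above 0, as did 51.7% of all probe sets, with a median of 0.25 on the log2 scale for the members and 0.0081 for all. Without LEW replicate 4, 3 of the 10 passed, Matn1, Ihh and Cnmd, against 15.0% of all. That array had the highest cartilage signals in LEW, so leaving it out widens this difference. In the other 15 of the 16 fits with 1 array left out, 0 members passed. With array weights, 1 passed, Matn1, at an adjusted p of 0.0403 in limma, against 17.6% of all.

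For COP minus DA, 0 of 10 passed (limma), against 11.9% of all, and 0 had an unadjusted p under 0.05. Of the 10 differences 9 lay above 0, against 52.6% of all, with a median of 0.19. The largest was that of Matn1, at 0.57 (95% interval -0.14 to 1.28).

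For F344 minus COP, 1 of 10 passed, Pth1r, against 19.9% of all probe sets, and all 10 differences lay above 0, against 48.2% of all. For F344 minus DA, 1 of 10 passed, again Pth1r, against 16.1% of all, and all 10 lay above 0, against 49.6%. The members' median difference was 0.23 for F344 minus COP and 0.43 for F344 minus DA. These contrasts share the F344 arrays.

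The F344 and DA arrays did not overlap for 6 of the 10 members, all higher in F344, where 10.8% of all probe sets lay wholly higher in F344 and 21.5% did not overlap in either direction. The 6 were Matn1, Ihh, Pth1r, Comp and Hapln1 on 1370125_at and 1384541_at. The Hapln1 probe sets among them correlated at 0.984, so they are not separate results. In each of the other 5 contrasts 0 members were free of overlap, against 18.3% of all probe sets for F344 minus LEW, 16.4% for COP minus DA, 25.1% for F344 minus COP, 17.4% for LEW minus COP and 13.4% for LEW minus DA. Fitted on the 8 F344 and DA arrays alone, 7 of 10 members passed for F344 minus DA, against 17.4% of all. They were Acan 1387355_at, Matn1, Pth1r, Comp and the 3 Hapln1 probe sets. That fit does not hold the LEW and COP arrays, in which the members' spread was widest. Without LEW replicate 4, 2 of 10 passed for F344 minus DA, Pth1r and Matn1, against 17.6% of all.

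For LEW minus COP, 0 of 10 passed (limma), against 13.7% of all, and 0 had an unadjusted p under 0.05. Without LEW replicate 4, 1 of 10 passed, against 14.6% of all: Matn1, at -1.06 on the log2 scale with an adjusted p of 0.00936 in limma, compared with -0.62 with it. In the other 15 of the 16 fits with 1 array left out, 0 passed. For LEW minus DA, 0 of 10 passed (limma), against 10.4% of all, and again 0 had an unadjusted p under 0.05. Differences lay above 0 for 2 of 10 members in LEW minus COP, against 46.6% of all, and for 7 of 10 in LEW minus DA, against 47.2%. Members and all probe sets were measured on the same arrays, and the median standard error of a contrast was 0.23 for the members and 0.11 for all probe sets.

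**Figure D2:**
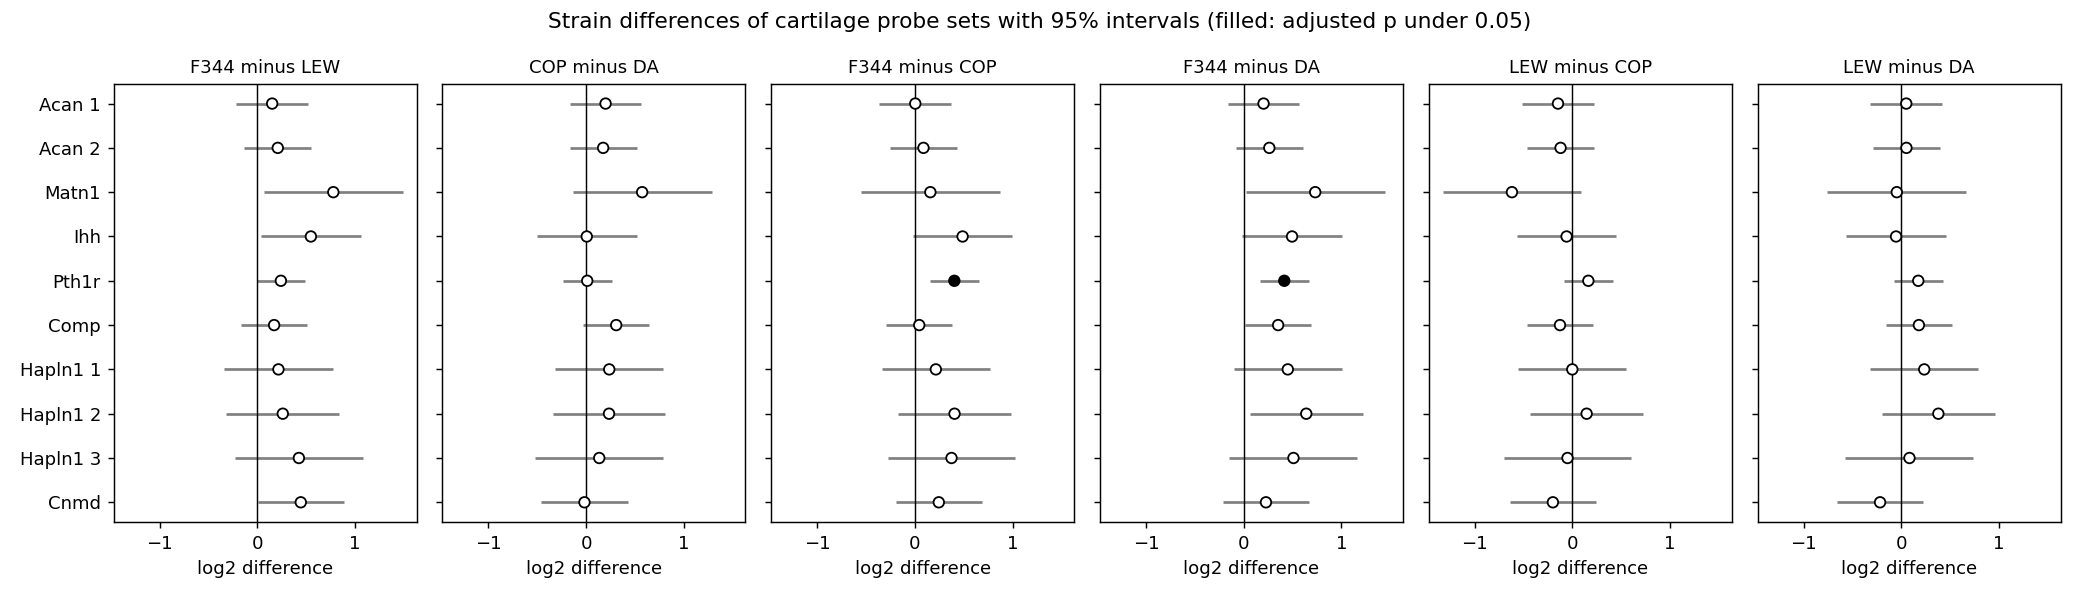
Log2 difference between strains, first strain minus second, for the 10 cartilage probe sets in the 6 contrasts, with 95% intervals as lines and filled points for an adjusted p under 0.05. Only Pth1r is filled, in F344 minus COP at 0.40 and F344 minus DA at 0.42, and the points of F344 minus LEW, F344 minus COP and F344 minus DA all lie above 0.

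Over the 16 arrays, the median share of a member's variance that lay within strains was 79.4%, with a range from 52.2% for Pth1r to 90.1% for Acan 1368836_a_at, and the median over all probe sets was 60.6%. LEW replicates 1 and 4 and COP replicates 1 and 4 were the members' own extremes, so leaving them out lowers this share by the choice itself. Over the other 12 arrays the members' median was 54.1%, with a range from 27.6% for Pth1r to 65.6% for Hapln1 1370125_at, against 52.7% for all probe sets. All probe sets lost the same arrays and not their own extremes, so these medians are not a like comparison. The spread itself differed between strains. In F344 the members' median SD of log2 signal over the 4 arrays was 0.0549, against 0.121 for all probe sets, and 0 of the 10 members lay above the 90th percentile of all. In LEW the members' median was 0.500, against 0.154 for all, and 9 of 10 lay above the 90th percentile of 0.333. In COP it was 0.483, against 0.136 for all, with 9 of 10 above the 90th percentile of 0.315. In DA it was 0.280, against 0.150 for all, with 4 of 10 above the 90th percentile of 0.334. Pth1r was the member below the 90th percentile in both LEW and COP, with SDs of 0.21 and 0.26. The comparison with all probe sets was not matched for signal level, and most members were far brighter than the array medians.

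The widest member was Matn1 in LEW, whose SD of 1.01 exceeded that of 99.8% of all probe sets in that strain. The narrowest was Comp in F344, with an SD of 0.035. The widths depended in part on the end arrays. The median SD was 0.345 in LEW without replicate 4 and 0.449 without replicate 1, and 0.302 in COP without replicate 4 and 0.438 without replicate 1. Each of these exceeded the F344 value, which lay between 0.0558 and 0.0612 with any 1 array left out. These are descriptions of 4 arrays per strain and the difference in spread was not tested.

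**Figure D3:**
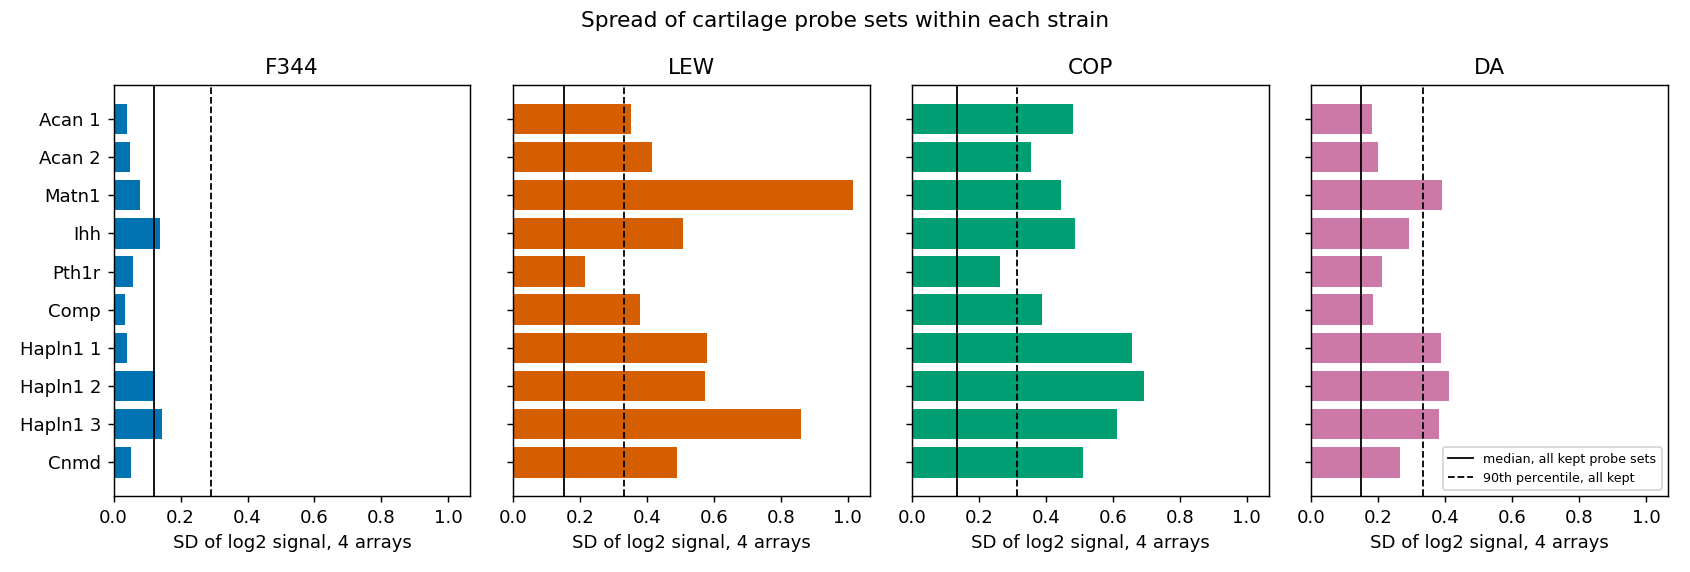
SD of log2 signal over the 4 arrays of each strain for the 10 cartilage probe sets, 1 panel per strain. The solid line is the median and the dashed line the 90th percentile of all 18625 probe sets in that strain. Bars pass the dashed line for 0 members for F344, 9 for LEW, 9 for COP and 4 for DA.

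The members moved together from array to array. The mean of the 7 member genes' log2 signals, each centred on its mean over the 16 arrays, was 0.28, 0.26, 0.23 and 0.26 in F344. It was -0.64, 0.014, -0.35 and 0.52 in LEW, 0.52, 0.17, -0.087 and -0.51 in COP, and -0.011, -0.32, -0.29 and -0.029 in DA. LEW and COP each spanned over 1 unit on the log2 scale, F344 spanned 0.0505 and DA 0.31. With 1 array left out, the span fell as low as 0.656 in LEW (without replicate 4), 0.602 in COP (without replicate 4) and 0.0245 in F344 (without replicate 3). LEW replicate 4 and COP replicate 1 lay at nearly the same level. At the other end were LEW replicate 1, at -0.64, and COP replicate 4, at -0.51.

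Taken as deviations from the strain mean over 16 arrays, the 41 pairs of member probe sets from different genes had Pearson correlations from 0.413 to 0.974, with a median of 0.873, and Spearman correlations from 0.224 to 0.956, with a median of 0.8. The lowest was that between Matn1 and Pth1r. Over the 12 arrays left without LEW replicates 1 and 4 and COP replicates 1 and 4, the Pearson correlations ran from -0.586 to 0.955 with a median of 0.677. These values share the arrays and their scaling. Acan and Comp kept an almost fixed ratio: the SD within strains of their log2 ratio was 0.082 with Acan 1387355_at and 0.086 with 1368836_a_at, where each probe set alone had an SD between 0.288 and 0.312. Over the 12 arrays the SDs of the ratio were 0.083 and 0.074, where each probe set alone had an SD between 0.153 and 0.185. The Hapln1 probe sets 1370125_at and 1384541_at correlated at 0.984, and 1386310_at with them at 0.869 and 0.865.

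**Figure D4:**
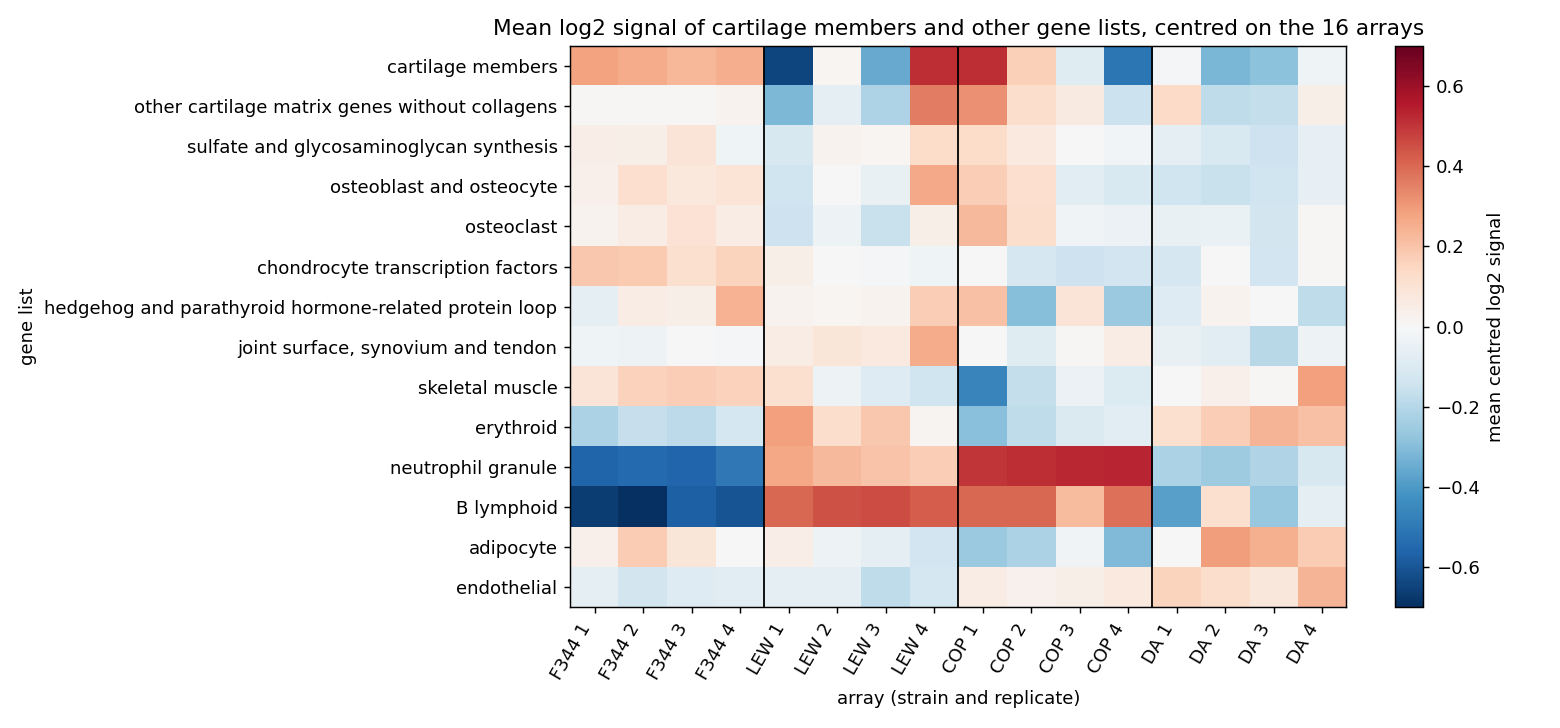
Mean log2 signal, centred on the 16 arrays, of the cartilage members and 13 other gene lists, with arrays on the x axis grouped by strain and colour from -0.7 to 0.7. The cartilage members' row runs from -0.64 to 0.52 in LEW and from 0.52 to -0.51 in COP, and the other cartilage matrix and osteoblast rows show the same order of arrays in LEW and COP at smaller size.

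Markers of other cell types moved with the cartilage mean, each compared here as deviations from strain means over 16 arrays. The osteoblast and osteocyte list (10 genes) correlated at 0.923, the osteoclast list (4 of 6 named markers past the filter, Calcr and Tnfrsf11a below it) at 0.866, and the erythroid list (15 genes) at -0.899. Without the 4 end arrays of LEW and COP they correlated at 0.627, 0.738 and -0.614. The summed erythroid signal per array lay between 233930 and 260930 for F344, 292600 and 333460 for LEW, 244140 and 265470 for COP, and 301920 and 353230 for DA. Within every strain it was lowest on the array with the highest cartilage mean.

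Weaker relations were seen with skeletal muscle (15 genes, -0.564), the joint surface, synovium and tendon list (11 genes, 0.419), adipocyte markers (7 genes, Lep below the filter, -0.346), neutrophil granule genes (7 genes, -0.313), endothelial markers (7 genes, 0.041) and B lymphoid markers (4 genes, -0.036). Without the 4 end arrays these were 0.213, 0.225, -0.592, 0.434, 0.719 and -0.185, so that muscle and neutrophil markers changed sign. The part of any of these cell types in the strain differences or in the spread of the cartilage genes was not tested.

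**Figure D5:**
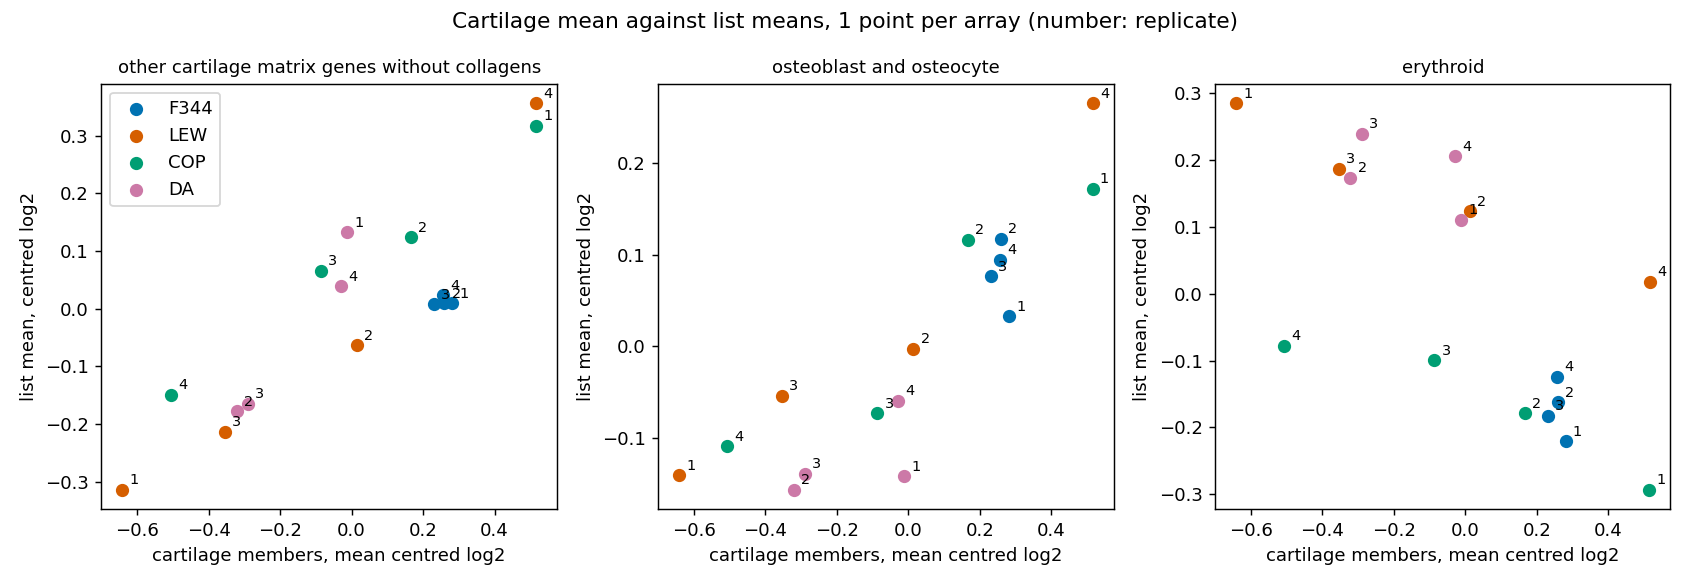
Mean centred log2 signal of 3 gene lists on the y axis against that of the cartilage members on the x axis, 1 point per array, coloured by strain and numbered by replicate. Other cartilage matrix genes and osteoblast markers are higher, and erythroid markers lower, on arrays with a higher cartilage mean, with LEW replicate 1 and COP replicate 4 at the left end and LEW replicate 4 and COP replicate 1 at the right.

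Genes of the same pathways were counted by their brightest probe set past the filter, and 32.9% of all 10548 such genes passed the F-test. In the contrasts 14.5% passed for F344 minus LEW, 12.2% for COP minus DA, 21.0% for F344 minus COP, 17.3% for F344 minus DA, 14.1% for LEW minus COP and 10.4% for LEW minus DA. Of 20 named cartilage matrix genes other than collagens and members, 18 passed the filter and 2 passed the F-test, Prelp and Cilp2. Their mean over the list followed the cartilage mean at 0.961, and at 0.885 without the 4 end arrays. Prelp, a leucine-rich repeat protein of matrix, averaged 1595 ± 100.4 for F344, 1315 ± 290 for LEW, 1839 ± 230 for COP and 1444 ± 158 for DA (SD, n = 4 each), with a LEW minus COP difference of -0.50 on the log2 scale (limma, adjusted p = 0.0075). Cilp2, a cartilage intermediate layer protein, averaged 2089 ± 65.8 in F344 and 1608 ± 369 in LEW (SD, n = 4 each), with a difference of 0.40 on the log2 scale (limma, adjusted p = 0.023).

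Of 17 genes of the hedgehog and parathyroid hormone-related protein loop, 11 were named and 7 passed the filter, among them the receptor component Smo and the transcription factors Gli1 and Gli2. By the F-test 0 of the 7 passed and 0 had an unadjusted p under 0.05 (limma), and in the 6 contrasts 0 passed, with 0 to 2 at an unadjusted p under 0.05. Hhip, Cdon, Gas1 and Disp1 lay below the filter. All 11 named genes belong to the hedgehog arm, and none encodes parathyroid hormone-related protein. These counts therefore do not cover the other arm of the loop. The widest range of strain means belonged to Sufu, a negative regulator of Gli proteins, at 172 ± 29.8 for F344, 222 ± 36.2 for LEW, 193 ± 32.3 for COP and 149 ± 34.4 for DA, and to Gli2, at 447 ± 31.2 for F344, 426 ± 100.1 for LEW, 449 ± 83.4 for COP and 338 ± 73.0 for DA (SD, n = 4 each). Their list mean correlated with the cartilage mean at 0.380 over 16 arrays and at -0.568 over the 12 arrays.

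Of 14 chondrocyte transcription factors and regulators, 10 were named, 8 passed the filter and 4 passed the F-test. Mef2c, known for chondrocyte enlargement and also from muscle and B lymphocytes, averaged 16643 ± 467 for F344, 12276 ± 411 for LEW, 8520.2 ± 686 for COP and 14317 ± 2084 for DA (SD, n = 4 each). F344 exceeded COP by 0.97 on the log2 scale (limma, adjusted p = 1.63e-08). Trps1, a zinc finger repressor of growth plate chondrocytes, averaged 2562 ± 322 for F344, 1633 ± 62.8 for LEW, 1922 ± 193 for COP and 1760.3 ± 191 for DA (SD, n = 4 each), and was higher in F344 than in each of the other strains (limma, adjusted p = 5.17e-05, 0.00341 and 0.00035). Hdac4, a deacetylase that restrains Mef2c in chondrocytes of mice, averaged 436 ± 72.6 for F344, 404 ± 32.0 for LEW, 416 ± 36.2 for COP and 252 ± 36.5 for DA (SD, n = 4 each), with an F344 minus DA difference of 0.79 on the log2 scale (limma, adjusted p = 0.000545). For Runx3, a Runt factor of skeletal and blood cells, F344 exceeded COP by 0.46 on the log2 scale (limma, adjusted p = 0.0179). In each of the 6 contrasts between 1 and 3 of the 8 genes passed, and the list medians lay between -0.032 and 0.14, against -0.015 to 0.012 for all genes. The list mean had a correlation with the cartilage mean of 0.164 over the 16 arrays and 0.131 over the 12, and its range within a strain was at most 0.148.

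Of 23 genes of sulfate activation and glycosaminoglycan synthesis, all were named, 19 passed the filter and 5 passed the F-test. Papss2, the synthase of the activated sulfate used on aggrecan chains and known from dwarfism in mice, averaged 4076 ± 119 for F344, 3799 ± 756 for LEW, 2289 ± 535 for COP and 2774 ± 265.5 for DA (SD, n = 4 each). F344 exceeded COP by 0.86 on the log2 scale (limma, adjusted p = 9.47e-05) and LEW exceeded COP by 0.74 (limma, adjusted p = 0.000558). Papss1, its paralogue, averaged 3163 ± 107 for F344, 4275 ± 345 for LEW, 3638 ± 97.8 for COP and 3046 ± 313 for DA (SD, n = 4 each), with an F344 minus LEW difference of -0.43 on the log2 scale (limma, adjusted p = 0.000257). For Ext1, a heparan sulfate polymerase, F344 exceeded DA by 0.38 on the log2 scale (limma, adjusted p = 0.00123). Fam20b, a xylose kinase of glycosaminoglycan chains, was lower in F344 than in COP by a difference of -0.35 (limma, adjusted p = 0.0027). In each of the 6 contrasts between 2 and 4 of the 19 genes passed, and the list medians lay between -0.081 and 0.15. As deviations from strain means, the list mean correlated with the cartilage mean at 0.871 over 16 arrays and at 0.548 over the 12 arrays.

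The genes whose signals most resembled the cartilage mean over the 16 arrays were, among 10472 non-member genes, Mia (r = 0.963), Frzb (0.962), Snorc (0.960), PCOLCE2 (0.952), Tspan6 (0.947), Ibsp (0.942), Cpe (0.936), Edil3 (0.924), Col10a1 (0.910) and Loxl3 (0.910). The 95th percentile over those genes was 0.645. Mia and Snorc are known as cartilage proteins, Frzb as a secreted Wnt antagonist of cartilage, Col10a1 as the collagen of enlarged chondrocytes and Ibsp as a bone sialoprotein of mineralizing matrix. Frzb and Snorc were also in the cartilage matrix list above. Over the 12 arrays without the end arrays of LEW and COP the same 10 genes had r between 0.825 and 0.958, with a 95th percentile of 0.709. Their order was not kept there: 4 of the 10 were still among the 10 nearest, PCOLCE2, Tspan6, Mia and Frzb, while Col10a1 ranked 114 and Edil3 ranked 140.

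Among single members, Acan lay nearest to Snorc (r = 0.958), Comp (0.950) and Mia (0.931), and Comp lay nearest to Snorc (0.958), Mia (0.953) and Acan (0.950). Hapln1 lay nearest to Col10a1 (0.954), Mia (0.952) and Rab34 (0.949), and Cnmd to Snorc (0.927), Col9a2 (0.920) and Acan (0.909). Ihh lay nearest to PCOLCE2 (0.905), Mia (0.891) and Frzb (0.890). Pth1r and Matn1 shared no near neighbour with these members. Pth1r lay nearest to Creb3l1 (0.947), Bmp1 (0.930) and Pdgfa (0.922). Matn1 lay nearest to Laptm4a (0.926), Edil3 (0.876) and Ptk2 (0.870), and Edil3 was also among the genes most like the cartilage mean. Over the 12 arrays these 21 pairs had r between 0.793 and 0.935, and in 3 of them the gene was still among the 3 nearest to its member.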

How the data were processed

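The authors deposited intensity values, with 1 linear signal for each probe set on each array. MAS5 produced them, according to the submitters' processing notes, with no version named. In the platform annotation 20826 of 31042 probe sets carried 1 symbol, 436 several and 9780 none, and 20758 matched RefSeq genes (GRCr8). Values below 1 (255 in number) were raised to 1 before log2. Probe sets whose mean fell under the 40th percentile were dropped. All 16 arrays entered a limma fit (version 3.58.1, R 4.3.3), with a mean for each strain, 12 residual degrees of freedom and moderation with an intensity trend. Two-sided p-values were adjusted (Benjamini-Hochberg) over 18625 probe sets at 0.05. The fit was tested on simulated data in which probe sets were independent and had the same SD in every strain. The members moved together and differed in spread between strains, which that simulation did not cover. Precision is limited by the number of arrays.

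The members and lists were chosen with earlier results of these data known. All members are named, and of each pathway list and the osteoblast list up to 4 F-test calls with the widest strain ranges, or the 2 widest where none was called. For likeness, the 10 nearest genes and 3 per member are named. The other marker lists are given as lists. Alternatives are in the closing section. Figures used matplotlib 3.10.9.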

Additional observations from a re-analysis of the deposited data

Results flagged for a closer look

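Of the 44 groups of 4 arrays tested for a sample far from the other 3, 3 had one, and chance gives about 1 in 20 groups. Acan on 1387355_at had a signal of 9714.6 in DA replicate 1, where the other DA arrays lay between 7174.2 and 7485.6. Ihh had a signal of 178.31 in DA replicate 2, where the others lay between 259.55 and 275.24. Hapln1 on 1370125_at had a signal of 8191.8 in F344 replicate 1, where the others lay between 7728.5 and 7798.1. No LEW or COP array passed this criterion. For Pth1r on 1370259_a_at COP replicate 1 came near it, with a gap to the next array of 0.803 of the range on the log2 scale, just under the critical value.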

How the results depend on the processing

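Quantile normalization, median centring, a pseudocount of 19.3, a filter at the 60th percentile or none, robust moderation and, added after seeing the data, weights per strain left the number of members called in each comparison as reported, and no Pth1r difference reversed. With no intensity trend the F-test, F344 minus COP and F344 minus DA each called 0 members, against 27.8%, 17.9% and 14.2% of all probe sets. With array weights the F-test called 2 (35.3% of all probe sets) and F344 minus LEW called 1 (17.6%). The fit of 8 arrays called 7 for F344 minus DA (17.4% of all). Median centring made the F344 range of the cartilage mean 0.0855, against 0.0505. The causes were not tested.

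With 1 array left out, members called ran from 0 to 2 for the F-test, 0 to 3 for F344 minus LEW, 0 to 1 for F344 minus COP, 0 to 2 for F344 minus DA and 0 to 1 for LEW minus COP, and were 0 throughout for COP minus DA and LEW minus DA. The F-test count of 2 came without LEW replicate 4 (33.2% of all). The highest counts for F344 minus LEW, F344 minus DA and LEW minus COP came without that array too (15.0%, 17.6% and 14.6% of all). Over these fits the share of all probe sets called ran from 15.5% to 20.9% for F344 minus COP. It ran from 8.2% to 13.2% for COP minus DA and from 8.28% to 10.6% for LEW minus DA. The median SD ran from 0.302 to 0.585 in COP, and the range of the cartilage mean from 0.0245 to 0.0505 in F344, from 0.656 to 1.16 in LEW and from 0.602 to 1.02 in COP, low without F344 replicate 3, LEW replicate 4 and COP replicate 4.

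Same-numbered arrays correlated between -0.173 and 0.0875 in their deviations. The labels do not say whether same-numbered arrays were processed together, and low correlations cannot settle it. With the replicate number as a block the counts of members called were as reported, 1, 1 and 1 where Pth1r passed (adjusted p = 0.0258, 0.0180 and 0.0187 in limma) and 0 elsewhere. Of all probe sets, 29.3%, 18.9% and 15.5% passed where Pth1r did, and between 9.98% and 13.2% elsewhere.

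Scanner images, detection calls and probe sets with several symbols were not used here. Ihh and Matn1 had arrays near or under the filter level, and 4 arrays per strain give wide intervals.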
